A study of Mus musculus with 4 samples.

Results

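Of 14973 autosomal CpG clusters in mouse cells, 500 were methylated at 40% or more in each of 4 libraries, from induced pluripotent stem cells (iPSCs), NESTIN-GFP-positive neural precursors (NESTIN-GFP precursors), iPSC-derived dopaminergic (iPSC-DA) neurons, and mesodiencephalic dopaminergic (mdDA) neurons of the embryo (3.34%, Wilson 95% interval 3.06 to 3.64). A cluster was a run of at least 10 cytosine positions with at least 5 calls in each of the 4 libraries and gaps under 100 bp. Its methylation level was the percent of methylated calls among all calls of its positions. The 500 clusters held 6182 positions. They were divided by the same levels into 110 fully methylated clusters, at 80% or more in every library, 1 persistently intermediate cluster, from 40% to under 70% in every library, and 389 mixed clusters, which met neither limit. Members and classes were chosen by these measured levels, so that the levels are descriptions and were not tested. The data hold almost no clusters that were intermediate throughout.

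The libraries came from reduced representation bisulfite sequencing (RRBS), in which the enzyme MspI cuts at CCGG and CpG-rich fragments are converted and read. There was 1 library per group, without replicates, so that no difference between groups was tested and intervals cover counting error only. The iPSCs were reprogrammed with retroviruses from Pitx3 Gfp/+ embryonic fibroblasts, and the label names no clone. The NESTIN-GFP precursors carried Nestin Gfp/+, hence another reporter line, and were collected after 14 days of differentiation on stromal feeder cells. They are labelled as neurons in the sample records and as precursors in the methods of the study. The iPSC-DA neurons were Pitx3 Gfp/+ cells sorted for GFP after 4 weeks of differentiation. The mdDA neurons, dopaminergic neurons of the embryonic midbrain, were sorted in the same way from Pitx3 Gfp/+ embryos at E14.5. All groups thus carried a Gfp reporter allele, and the Gfp reporter in the Pitx3 groups sits in a gene that dopaminergic neurons need. The median number of calls per position was 79 in iPSCs, 18 in NESTIN-GFP precursors, 86 in iPSC-DA and 77 in mdDA neurons.

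In mammals, cytosine methylation is found mostly at CpG dinucleotides, is copied to the new strand at replication by DNMT1, and is laid down anew by DNMT3A and DNMT3B. Most CpGs between and within genes are methylated, whereas the dense CpG islands at promoters are mostly free of methylation. Islands inside genes and promoters of germline genes are among those that are methylated in somatic cells. Imprinting control regions are methylated on the allele of 1 parent only, which gives an intermediate level in a population of cells. A level between the extremes can also come from a mixture of cells, and alleles and cells cannot be told apart in pooled calls.

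Few members were at a promoter that could be matched. RefSeq promoter sequences of 300 bases, from 250 bases before to 50 after a gene start (GRCm38.p6), were placed on the data by matching their CpG pattern to the covered positions. On the 18 autosomes in that table, 8814 promoters of 7904 genes were placed, and 9 of 486 members overlapped one of them (1.85%, Wilson 95% interval 0.977 to 3.48). The promoters of 4 protein-coding genes with a cluster of their own among these members are printed in full, because they are the windows around the start of such genes that members overlapped. The start of the gene follows the first 250 bases of each window. They are written 5′ to 3′ on the strand of the gene, with each CpG in capitals.
Tuba3b: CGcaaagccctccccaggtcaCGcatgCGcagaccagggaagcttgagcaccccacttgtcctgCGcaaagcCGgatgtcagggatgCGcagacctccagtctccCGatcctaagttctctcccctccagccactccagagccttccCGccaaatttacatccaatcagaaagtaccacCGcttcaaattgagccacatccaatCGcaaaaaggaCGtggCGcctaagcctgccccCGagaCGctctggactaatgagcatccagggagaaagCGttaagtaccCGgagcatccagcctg
Plekhg4: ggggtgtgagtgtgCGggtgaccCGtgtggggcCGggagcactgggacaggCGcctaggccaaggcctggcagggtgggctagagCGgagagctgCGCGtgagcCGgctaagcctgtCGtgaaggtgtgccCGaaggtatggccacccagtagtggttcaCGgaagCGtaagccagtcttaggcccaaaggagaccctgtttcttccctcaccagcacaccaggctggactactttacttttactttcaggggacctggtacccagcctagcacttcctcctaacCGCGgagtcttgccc
S100z: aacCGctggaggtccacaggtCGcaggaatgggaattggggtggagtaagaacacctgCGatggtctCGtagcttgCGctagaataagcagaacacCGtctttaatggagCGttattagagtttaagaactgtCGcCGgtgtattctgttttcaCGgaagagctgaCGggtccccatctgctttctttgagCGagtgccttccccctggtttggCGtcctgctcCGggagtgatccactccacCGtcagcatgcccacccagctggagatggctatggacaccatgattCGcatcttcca
Vmn2r29: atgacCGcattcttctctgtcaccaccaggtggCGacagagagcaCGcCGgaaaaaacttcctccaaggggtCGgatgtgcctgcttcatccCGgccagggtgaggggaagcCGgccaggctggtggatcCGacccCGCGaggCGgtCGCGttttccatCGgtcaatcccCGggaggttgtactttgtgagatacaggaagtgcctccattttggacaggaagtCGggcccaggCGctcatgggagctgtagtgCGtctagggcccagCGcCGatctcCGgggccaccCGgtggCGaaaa
Tuba3b encodes an alpha-tubulin, Plekhg4 a guanine nucleotide exchange factor, S100z a calcium-binding protein of the S100 family and Vmn2r29 a vomeronasal receptor. In GRCm38.p6 these windows are chr6:145615713-145616012 (plus strand), chr8:105374977-105375276 (plus strand), chr13:95478606-95478905 (minus strand) and chr7:7278240-7278539 (minus strand). They hold 16, 14, 16 and 23 CpGs, in that order. The MspI site CCGG, which reads the same on both strands, occurs 2 times in each of the first 3 and 6 times in that of Vmn2r29. It occurs in 53.5% of all 31396 autosomal promoters of the table. The Tuba3b window was placed on 14 covered positions, against 8 at its second-best place, which is the weakest placement of the 4 genes. The coordinates of clusters given from here on are those of the deposited files, whose chromosome lengths fit NCBIM37 (mm9).

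At Tuba3b, the cluster chr6:145564507-145564735 of 17 positions was at 52.6% in iPSCs, 98.5% in NESTIN-GFP precursors, 94.5% in iPSC-DA and 96.6% in mdDA neurons. Of its positions, 3 lay inside the printed window, at bases 275, 285 and 286, all after the start, and their levels were 46.2% to 50.5% in iPSCs and 93.0% or more in the other libraries. At Plekhg4, the cluster chr8:107898815-107898982 of 15 positions was at 43.8% in iPSCs and at 94.4% in NESTIN-GFP precursors, 94.99% in iPSC-DA and 89.7% in mdDA neurons. Its 9 positions inside the window lay between bases 16 and 106, before the start, and ranged from 28.9% to 87.5% in iPSCs and from 58.4% to 100% in mdDA neurons. The base at 52 was the lowest of them in mdDA neurons, as it was in NESTIN-GFP precursors and iPSC-DA neurons. At both genes the iPSC library was the lowest.

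At S100z, the cluster chr13:96248558-96248724 of 10 positions was at 67.0% in iPSCs, 91.7% in NESTIN-GFP precursors, 83.6% in iPSC-DA and 91.1% in mdDA neurons. Within its window 9 positions were covered, from 48.4% to 78.0% in iPSCs and from 82.9% to 98.6% in mdDA neurons. At Vmn2r29, the cluster chr7:7231079-7231158 of 15 positions had the narrowest spread of the 4 genes, with 74.0% in iPSCs, 82.4% in precursors, 77.8% in iPSC-DA and 71.3% in mdDA neurons. This level was an average over strands that differed. The 8 positions on the strand of the gene were at 69.2% to 100% in mdDA neurons with 9 to 730 calls each, whereas the 7 positions on the other strand were at 0% to 22.8% with 90 to 92 calls each. In iPSC-DA neurons the strands were at 79.6% to 94.1% and 0.735% to 26.8%. In iPSCs they were nearer, at 71.0% to 85.6% and 42.4% to 62.0%. Vomeronasal receptors form a large family of similar genes, and whether reads of copies were assigned here was not tested.

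The other matched promoters belonged to the long noncoding RNAs Gm31399, Gm10863, Gm31129 and Gm46972 and to the divergent pair Tmem267 and 3110070M22Rik, which share the cluster chr13:120276942-120277345. With 67 positions this was the member with the most positions, and it was at 67.6% in iPSCs, 88.9% in NESTIN-GFP precursors, 52.7% in iPSC-DA and 73.7% in mdDA neurons. Its positions were uneven. Their standard deviation was 35.6, 40.7, 23.2 and 31.0 points in the same order, and single positions in the Tmem267 window ranged from 0% to 100% in NESTIN-GFP precursors and iPSC-DA neurons. The cluster at Gm46972, chr6:114222394-114222514, was at 86.0% in iPSCs and 93.3% in NESTIN-GFP precursors, and at 45.2% and 43.1% in iPSC-DA and mdDA neurons. It was thus lower in both neuron libraries than in iPSCs and precursors. The Gm46972 promoter was placed on only 11 covered positions, against 6 at its second-best place.

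Against the remaining clusters defined below, a matched promoter was uncommon among members. Of 13501 clusters that were below 40% in at least 1 library besides iPSCs, named here the remaining clusters, 4250 overlapped a matched promoter (31.5%). Of 545 clusters that were at 40% or more in the 3 other libraries and below 40% in iPSCs, 17 did so (3.12%). Members were small, and a promoter can be missed more easily in a small cluster. Among clusters of 10 to 13 positions the shares were 1.32% of 378 members, 1.59% of 315 clusters low in iPSCs and 22.6% of 3528 remaining clusters. All 9 members at a matched promoter were mixed. Of the 110 fully methylated clusters 0 overlapped a matched promoter, which allows a share of up to 2.73%. The median distance from the middle of a cluster to the nearest matched start was 73512 bp for fully methylated clusters, 41556 bp for mixed clusters, 25016 bp for those low in iPSCs alone and 672 bp for the remaining clusters. Promoters with few covered CpGs could not be placed, so that these are shares with a matched promoter and not with any promoter. Matched promoters had a median of 25 CpGs, against 7 in all 31396 autosomal promoters of the table. The comparison by number of positions does not remove this difference.

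**Figure D1:**
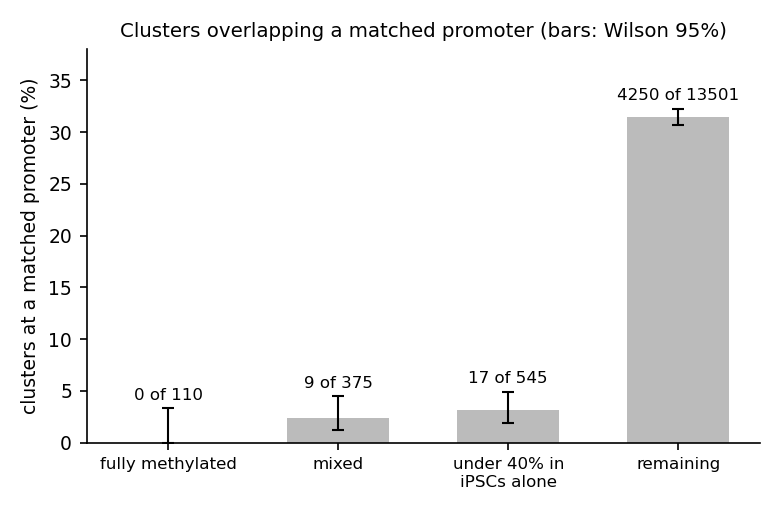
Percent of clusters that overlap a matched promoter (y axis, bars from 0) in 4 sets of clusters, with Wilson 95% intervals and the counts above each bar. None of the 110 fully methylated clusters and 9 of 375 mixed clusters overlap one, against 4250 of 13501 remaining clusters.

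Among clusters away from a matched promoter, members lay inside genes about as often as others. Clusters at a matched promoter were left out here, as were those without matched promoters on both sides that allowed a placement. Of what was left, 183 of 451 members (40.6%) were within the span of a gene with a matched start. The shares were 36.6% of 101 fully methylated clusters, 41.7% of 350 mixed clusters, 44.5% of 488 clusters low in iPSCs alone and 38.3% of 8461 remaining clusters. The 183 members were in 166 genes, of which 14 held more than 1 member. These genes held 31 members, 4 of them fully methylated. They include Camta1, a calmodulin-binding transcription activator, Cdh22, a cadherin, Adgrb2, an adhesion G protein-coupled receptor, Unc5a, a netrin receptor, Ptprf, a receptor-type tyrosine phosphatase, Col27a1, a fibrillar collagen, and Traf3, a signalling adaptor of TNF receptors. They were chosen for their number of members after the placement was known.

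Members of the same gene could belong to different classes. In Camta1, chr4:150519355-150519601 was fully methylated, at 89.3% in iPSCs, 98.2% in NESTIN-GFP precursors, 89.7% in iPSC-DA and 97.4% in mdDA neurons. The other members in Camta1 were at 61.0% and 50.9% in iPSCs and at 95.3% or more in the other libraries. In Unc5a, clusters under 1000 bp apart were at 49.4% and 82.7% in iPSCs and at 94.1% and 92.5% in mdDA neurons. In Ccdc85c, a coiled-coil protein, chr12:109480740-109480996 was at 70.8% in iPSCs, 93.6% in precursors, 81.7% in iPSC-DA and 40% in mdDA neurons, while its neighbour chr12:109481159-109481431 was at 88.01%, 95.3%, 89.4% and 88.6%. The members of Cdh22 were all mixed, with 45.9% to 74.3% in iPSCs, 93.0% to 96.3% in NESTIN-GFP precursors, 72.6% to 82.8% in iPSC-DA and 53.9% to 88.1% in mdDA neurons.

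The iPSC library held the lowest level in most members. It was the lowest of the 4 in 417 of 500 members (83.4%, against 54.5% of all clusters), the iPSC-DA library in 51, the mdDA library in 30 and the NESTIN-GFP library in 2. The NESTIN-GFP library was the highest in 282 members, the mdDA library in 135, the iPSC-DA library in 82 and the iPSC library in 1. The median level was 68.7% in iPSCs (quartiles 53.9 to 81.0), 95.7% in NESTIN-GFP precursors (93.4 to 97.1), 91.5% in iPSC-DA neurons (85.8 to 96.02), and the mdDA median was 94.9% (89.5 to 96.9). Levels in iPSCs were spread evenly, with 89 members from 40% to under 50%, 87 in the next 10 points, 90, 98 and 107 in those that follow, and 29 at 90% or more.

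**Figure D2:**
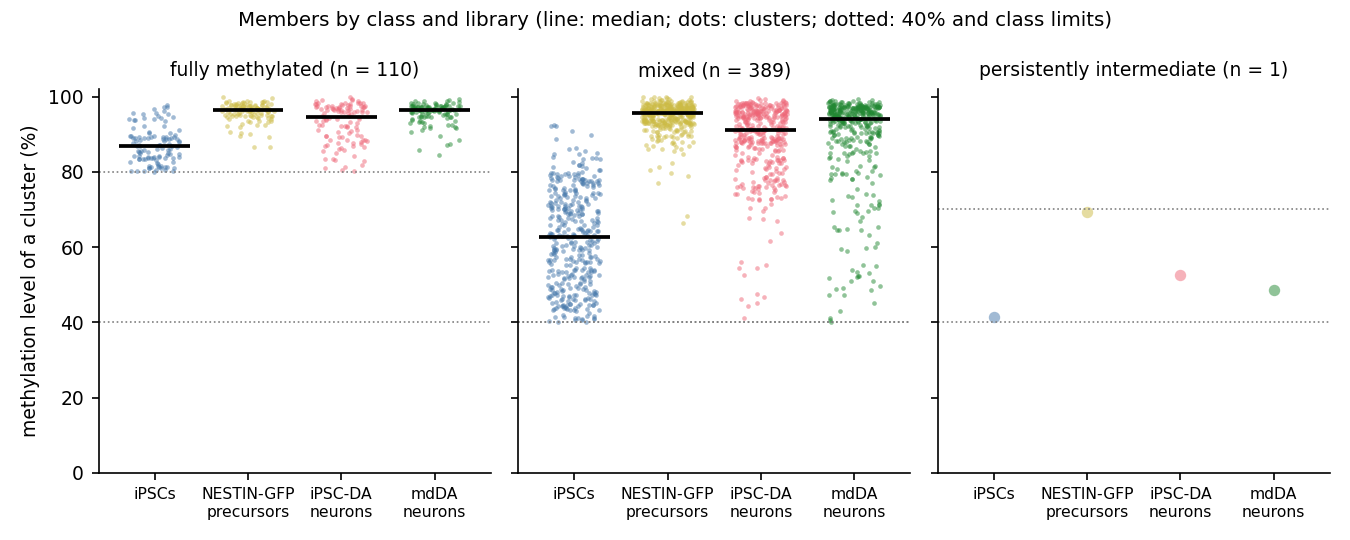
Methylation level of each member (y axis, percent) in the 4 libraries (x axis) for the 110 fully methylated, 389 mixed and 1 persistently intermediate clusters, with 1 dot per cluster, a line at the median and dotted lines at 40% and at the class limits. Mixed clusters are spread from 40.1% to 92.3% in iPSCs, and their medians in the other libraries are 91.1% or more.

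The mixed class was mainly a class of clusters that were partly methylated in iPSCs alone. Of all members, 276 were under 80% in iPSCs and in no other library, 32 in iPSCs and mdDA neurons, 27 in iPSCs and iPSC-DA neurons, 23 in these 3 libraries, 16 in iPSC-DA neurons alone and 8 in mdDA neurons alone. The NESTIN-GFP library was under 80% in 6 members. In the 276 clusters the median iPSC level was 61.3%, and this was not a mix of high and low positions. Of their 3454 positions 81.8% were from 20% to 80% in iPSCs and 1.51% were below 20%, and in the median cluster 90% of positions were in that range. The median standard deviation over the positions of a cluster was 12.98 points in iPSCs.

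The number of calls also differed between libraries at members. Calls per position, divided by the median of the library, were 0.667 in the median member in iPSCs, 2.31 in NESTIN-GFP precursors, 1.05 in iPSC-DA and 1.07 in mdDA neurons, against 1.25, 1.02, 1.305 and 1.307 in the remaining clusters. When calls were thinned at each position to the smallest total of the 4 libraries, 84.9% of 503 members were lowest in iPSCs. Over 3 times the median calls per position in at least 1 library were found in 143 members (28.6%). The shares were 22.4% of the clusters low in iPSCs alone and 2.40% of the remaining clusters. In every library 2 members (0.4%) had over 3 times the median. The upper quartile of members on this scale was 3.14 in NESTIN-GFP precursors, the library with a median of 18 calls per position. It was 0.852 in iPSCs, 1.39 in iPSC-DA and 1.42 in mdDA neurons. The part of these unequal calls in the levels was not tested.

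The threshold itself was set by iPSCs. At 40% or more were 529 clusters in iPSCs, 1856 in NESTIN-GFP precursors, 3060 in iPSC-DA and 1077 in mdDA neurons. Of the clusters that failed in a single library, 557 failed in iPSCs, 24 in mdDA neurons and 0 in the other libraries. When clusters were formed and members taken without the iPSC library, there were 1093 members, of which 741 were fully methylated and 25 persistently intermediate. The lowest level was 40%, in mdDA neurons, at the Ccdc85c cluster above. The next members inside were chr10:60154521-60154801, at 40.1% in iPSCs and 77.9% in mdDA neurons, chr11:94270585-94270830, at 40.1% and 66.8%, and chr2:32775194-32775333, within Niban2, at 40.5% and 90.7%. Just outside were chr9:96896373-96896587, within Spsb4, at 39.96% in iPSCs and 99.1% in mdDA neurons, chr4:141587614-141587832, within Tmem51, at 39.94% and 97.4%, chr5:119431147-119431352, at 39.9% and 45.6%, and chr5:33843441-33843516, at 39.7% and 42.0%. Levels on both sides of the limit thus differed by less than their counting error.

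**Figure D3:**
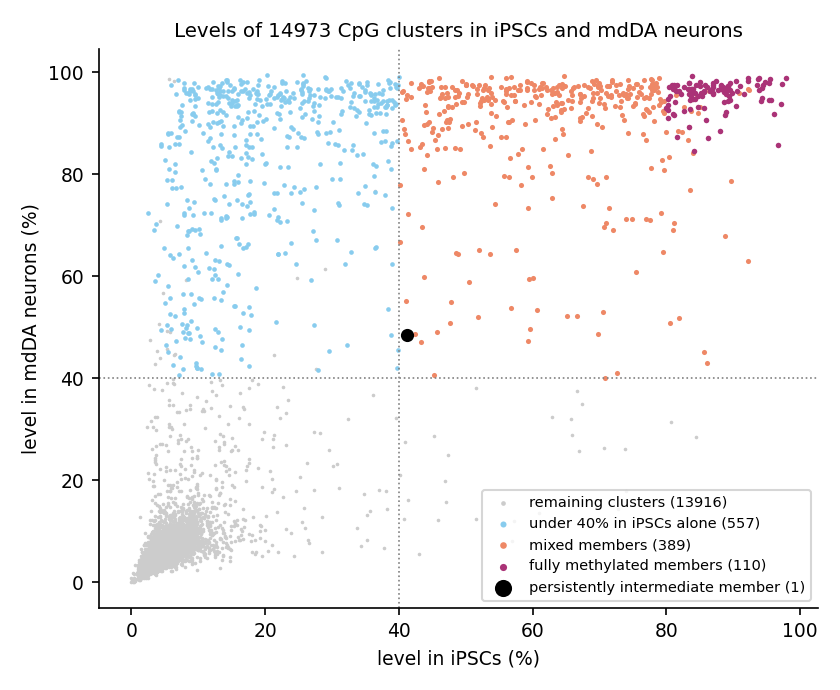
Level of each of 14973 clusters in iPSCs (x axis, percent) against mdDA neurons (y axis, percent), with 1 dot per cluster, colours for the sets named in the key and dotted lines at 40%. The iPSC level runs without a gap across the limit of 40%, from clusters low in iPSCs alone (557) into the mixed (389) and fully methylated (110) members.

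The fully methylated clusters, whose levels are bounded by the class limit of 80%, again had their lowest median in iPSCs. Their medians were 86.9% in iPSCs, 96.5% in NESTIN-GFP precursors, 94.4% in iPSC-DA and 96.4% in mdDA neurons. At 90% or more were 25 of 110 clusters in iPSCs, 106 in NESTIN-GFP precursors, 76 in iPSC-DA and 104 in mdDA neurons. In iPSCs 19.8% of their 1296 positions were from 20% to 80%, against 77.1% of the 4873 positions of mixed clusters. In mdDA neurons these shares were 2.24% and 15.7%.

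The fully methylated cluster with the most positions was chr7:89920356-89920540, with 21 positions within Efl1, an elongation factor-like GTPase of ribosome maturation. It was at 84.3% (95% interval 83.8 to 84.8) in iPSCs, 92.6% (92.3 to 93.0) in NESTIN-GFP precursors, 82.9% (82.0 to 83.8) in iPSC-DA and 94.8% (94.2 to 95.3) in mdDA neurons. It held 17694, 19439, 7293 and 6052 calls in that order, against 586 to 1760 calls in the next one, and its positions had a standard deviation of 22.8 to 30.8 points. It is thus fully methylated by its pooled calls and not at every position. The cluster chr6:143781734-143782065, with 20 positions and no gene around it among those matched, was more even. It was at 82.3% (79.6 to 84.7), 97.4% (95.8 to 98.4), 96.5% (95.5 to 97.2) and 95.8% (94.7 to 96.7), and its positions had a standard deviation of 12.0 points in iPSCs and 2.14 to 7.30 points in the other libraries.

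Of the others, chr17:27254345-27254643 lay within Itpr3, a calcium release channel of the endoplasmic reticulum, and had 17 positions. It was at 85.1% in iPSCs, 95.3% in NESTIN-GFP precursors, 98.4% in iPSC-DA and 98.2% in mdDA neurons. The clusters chr13:49474506-49474732 and chr10:83837109-83837407, also of 17 positions, were at 83.7% and 81.3% in iPSCs and at 94.2% or more in each other library. All of these were lowest in iPSCs. In chr3:8327252-8327431, with 16 positions, the iPSC-DA library was lowest, at 88.3% (85.6 to 90.6), close to the 89.3% (86.1 to 91.8) of iPSCs and below the 98.0% (95.5 to 99.2) of NESTIN-GFP precursors and the 96.9% (94.9 to 98.2) of mdDA neurons.

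The persistently intermediate cluster was chr15:72640130-72640326, with 13 positions over 197 bp. It was at 41.3% (37.7 to 44.9) in iPSCs, 69.3% (61.5 to 76.2) in NESTIN-GFP precursors, 52.6% (48.9 to 56.3) in iPSC-DA and 48.5% (45.7 to 51.4) in mdDA neurons, with 712, 150, 707 and 1154 calls. The nearest matched start, that of Myh9, was 5032380 bp away, so that the promoter matching could not tie this region to a gene. No gene is named for it for that reason. Its place on the chromosome was not compared with known imprinted regions, and whether it lies at one was not tested. All 13 positions were from 20% to 80% in the iPSC, iPSC-DA and mdDA libraries, and 61.5% of them were so in NESTIN-GFP precursors. The level in NESTIN-GFP precursors was the least certain. Its 5 positions between 84 and 121 bp were each at 42.9% of 7 calls, and the last 4 positions, from 180 bp on, were at 82.1% to 100%. In iPSC-DA neurons those last 4 positions were at 20% to 51.5%, and at 22.2% to 44.4% in mdDA neurons. These levels rest on few calls, with 12 to 28 a position in precursors, and in 3 of the 4 positions with 10 in iPSC-DA neurons, 9 in mdDA neurons and 7 to 8 in iPSCs. With calls per position of 0.641 times the median in NESTIN-GFP precursors, it was less covered than most members in that library. The cluster depended on how clusters were formed. No cluster was intermediate throughout with at least 10 calls or 20 positions, with gaps under 50 or 200 bp, with strands merged, or with an upper limit of 60%, and 5 were so without the NESTIN-GFP library.

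**Figure D4:**
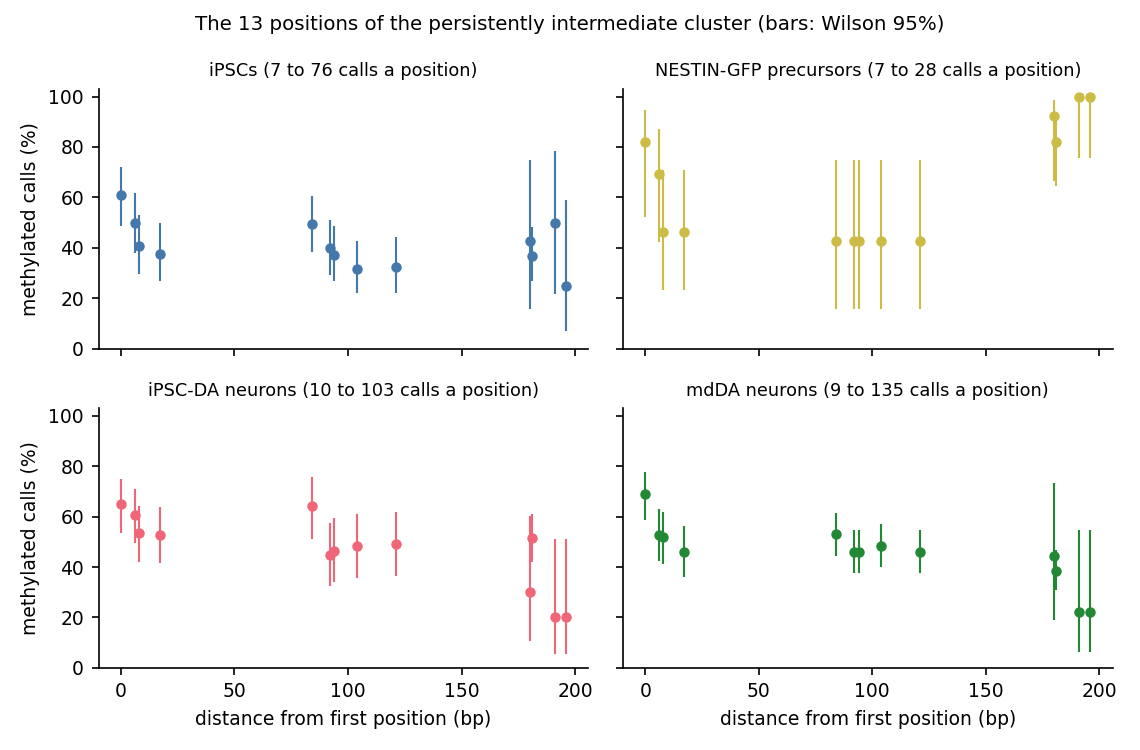
Percent of methylated calls (y axis) at the 13 positions of the persistently intermediate cluster by distance from its first position (x axis, bp), with 1 panel per library and Wilson 95% intervals as bars. Positions stay between 20% and 69.0% in the iPSC, iPSC-DA and mdDA libraries, and the last 4 positions reach 82.1% to 100% in NESTIN-GFP precursors.

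Other members came close to this class in some libraries only. Levels under 70% were found in 266 members in iPSCs, 3 in NESTIN-GFP precursors, 18 in iPSC-DA and 41 in mdDA neurons, and in at least 3 libraries in 4 members. The highest of the 4 levels was 90% or more in 477 members (95.4%) and under 80% in 2. The second of these was chr5:135273816-135273947, of 13 positions, at 70.7% in iPSCs, 79.7% in NESTIN-GFP precursors, 41.0% in iPSC-DA and 69.6% in mdDA neurons. Intermediate levels in a single library were frequent outside the members. From 40% to under 70% were 1952 clusters in iPSC-DA neurons, of which 96.5% were under 20% in iPSCs, and 180 clusters in mdDA neurons, of which 62.2% were so and 41 were at 40% or more in iPSCs. Of 25 clusters that were intermediate in the 3 libraries other than iPSCs, 24 were under 20% in iPSCs, and only the cluster on chromosome 15 was above 40% there. Low iPSC levels were usual, as 95% of all 14973 clusters were at 23.9% or less in iPSCs. Nothing is thus drawn from the 96.5% or from the 24 clusters.

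Imprinted and germline genes were not among the members that could be matched. Few matched promoters of any gene were at a member. Only 9 members overlapped one, against 17 clusters low in iPSCs alone and 4250 remaining clusters, so that nothing is drawn from this absence. Only matched promoters were looked at, and imprinting control regions elsewhere were not covered. Of 28 imprinted genes 22 were in the promoter table, 8 had a matched promoter and 7 had a cluster there. Of 25 germline genes 22 were in the table, 11 had a matched promoter and 5 had a cluster there. All of these clusters were under 40% in iPSCs, as were all but 529 of the 14973 clusters. Plagl1, an imprinted zinc finger gene, was at 4.12% in iPSCs, 22.6% in NESTIN-GFP precursors, 65.2% in iPSC-DA and 50.7% in mdDA neurons. Zrsr1, an imprinted splicing factor retrogene, was at 5.40%, 19.1%, 52.7% and 49.2%. The other imprinted genes with a cluster were lower in mdDA neurons. Peg12 was at 23.7% there, Igf2 at 5.74%, Grb10 at 4.02%, Igf2r at 3.03% and the clusters of Gnas at 4.84% and 3.35%. In iPSC-DA neurons these were at 44.3%, 46.6%, 41.5%, 66.7%, 4.42% and 4.12%, in that order. Dazl, an RNA-binding protein of germ cells, was at 8.004%, 49.2%, 65.8% and 47.9%, and Ddx4, a germ cell RNA helicase, at 8.28%, 73.4%, 79.0% and 75.1%. Mael, a piRNA pathway gene, was at 7.61%, 87.8%, 85.9% and 93.6%. Each thus failed the rule in iPSCs, and some failed it in other libraries too. Mael and the germline genes Slc25a31 and Hormad1 were above 80% in every library but that of iPSCs.

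Between the neuron libraries, members mostly had like levels. The median difference of iPSC-DA minus mdDA level was -0.92 points. At least 20 points higher in iPSC-DA neurons were 27 members (5.4%, against 27.7% of all clusters), and at least 20 points lower were 17 (3.4%, against 0.187% of all clusters). A level of 40% or more in both libraries limits these differences, as high levels leave no room for a rise. The rule used these levels, so nothing is drawn from the shares. Against NESTIN-GFP precursors, 31 members were at least 20 points lower in iPSC-DA neurons (6.2%, against 4.68% of all clusters) and 1 was higher (0.2%, against 15.9%). In mdDA neurons 51 were lower (10.2%, against 12.3%) and 3 higher (0.6%, against 0.154%).

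The largest difference in favour of iPSC-DA neurons was in chr10:79393533-79393852, at 96.4% (95.4 to 97.2) in iPSC-DA and 51.9% (48.9 to 54.9) in mdDA neurons, with 81.8% in iPSCs and 95.3% in NESTIN-GFP precursors. A cluster in Traf3, chr12:112499633-112499847, was at 92.02% and 48.7% in the neuron libraries, and 69.9% and 98.6% in iPSCs and precursors. The other member in Traf3 was at 91.1% and 96.9% in the neuron libraries. A cluster in Trim47, a ubiquitin ligase of the tripartite motif family, chr11:115967305-115967497, was at 91.2% and 48.8%. In each of these the mdDA level was intermediate, with 65%, 81.8% and 70% of positions from 20% to 80%.

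In the other direction, chr7:70947873-70948029 was at 46.7% (43.6 to 49.9) in iPSC-DA and 95.4% (93.7 to 96.6) in mdDA neurons, with 84.6% in iPSCs and 92.8% in NESTIN-GFP precursors. The cluster chr17:34822634-34822801 was at 54.4% and 87.4% in the neuron libraries, with 55.3% in iPSCs and 95.8% in precursors. A cluster in Col27a1, chr4:62882774-62882891, was at 44.3% and 77.0%, with 83.6% in iPSCs and 90.6% in precursors. All 3 were above 90% in NESTIN-GFP precursors, a library of another reporter line, in which 456 of 500 members (91.2%) were at 90% or more. They were below 55% in iPSC-DA neurons, a level bounded by their choice for the largest differences.

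Against iPSCs, 313 members were at least 20 points higher in NESTIN-GFP precursors (62.6%, against 18.2% of all clusters), 264 in iPSC-DA neurons (52.8%, against 33.2%) and 269 in those of the embryo (53.8%, against 5.97%). At least 20 points lower than in iPSCs were 0, 5 and 9 members in the same order, and 0.0%, 0.0801% and 0.287% of all clusters. Levels in any 2 libraries differed by at least 20 points in 350 members (70%, against 38.7% of all clusters), and in 80 members (16%, against 33.0%) when iPSCs were left out. Without iPSCs 328 members (65.6%, against 55.6% of all clusters) stayed within 10 points. The largest rises from iPSCs to mdDA neurons were in chr11:6313187-6313450, from 41.9% to 97.9%, chr8:130422553-130422611, from 40.7% to 96.4%, and chr17:24642300-24642540, from 40.5% to 96.2%. Each was close to the limit of 40% in iPSCs, which bounds the rise.

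The largest falls were, after the Gm46972 cluster, in chr11:5804437-5804656, from 85.6% in iPSCs to 45.1% in mdDA neurons, and chr18:75418425-75418575, from 72.6% to 41.1%. In both, NESTIN-GFP precursors were at 95.2% and 94.6% and iPSC-DA neurons at 81.3% and 76.4%, so that the mdDA library alone was intermediate. Among longer mixed clusters, named after their values were seen, chr12:30687430-30688023 in Pxdn, a peroxidase of the extracellular matrix, had 38 positions and was at 78.5% in iPSCs and 97.9% in mdDA neurons. A cluster of 27 positions in Prickle1, a planar cell polarity gene, chr15:93331125-93331524, was at 46.3% in iPSCs, 99.3% in NESTIN-GFP precursors, 96.4% in iPSC-DA and 97.1% in mdDA neurons. All of its positions were from 20% to 80% in iPSCs and none were in the other libraries. The same held in iPSCs for chr10:86371635-86371839, also of 27 positions, at 52.8% there and at 92.3% or more elsewhere.

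Members were short runs in sparse surroundings, and their number rested on the positions asked of a cluster, with 5942 members at 5 or more positions and 22 at 20 or more. The median member had 11 positions at a spacing of 17.1 bp, against 13 positions at 14.7 bp in clusters low in iPSCs alone and 20 positions at 9.45 bp in the remaining clusters. At least 20 positions were found in 4.4%, 16.2% and 50.04% of clusters of the 3 sets. Another cluster lay within 1000 bp of 6.20% of members, 18.3% of clusters low in iPSCs alone and 49.1% of remaining clusters. The median distance to the nearest cluster was 25278, 12250 and 1196 bp, in that order. Fully methylated clusters were farther from other clusters than mixed clusters, with medians of 38695 and 22494 bp, and had like numbers of positions (median 11 in both). In the last 10 Mb of a chromosome lay 17.6% of members, 11.7% of clusters low in iPSCs and 11.5% of the remaining clusters. Members were 1.60% of clusters on chromosome 16 and 4.97% on chromosome 4, the ends of the range over the autosomes.

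Single positions around the members, which the rule did not use, had levels like those of the clusters. Between 100 and 1000 bp from 204 members, 863 positions outside any cluster were at a mean of 65.8% in iPSCs, 94.9% in NESTIN-GFP precursors, 87.3% in iPSC-DA and 89.4% in mdDA neurons. Around fully methylated clusters the means were 76.1%, 96.1%, 92.2% and 95.3%, and around mixed clusters 63.0%, 94.6%, 86.2% and 88.04%. Around clusters low in iPSCs alone the iPSC mean was 31.0%, with 82.0% in mdDA neurons. Around the remaining clusters the means were 8.33%, 31.1%, 24.1% and 12.2%. The order of the classes in iPSCs was thus seen also at neighbouring positions, which come from the same libraries.

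**Figure D5:**
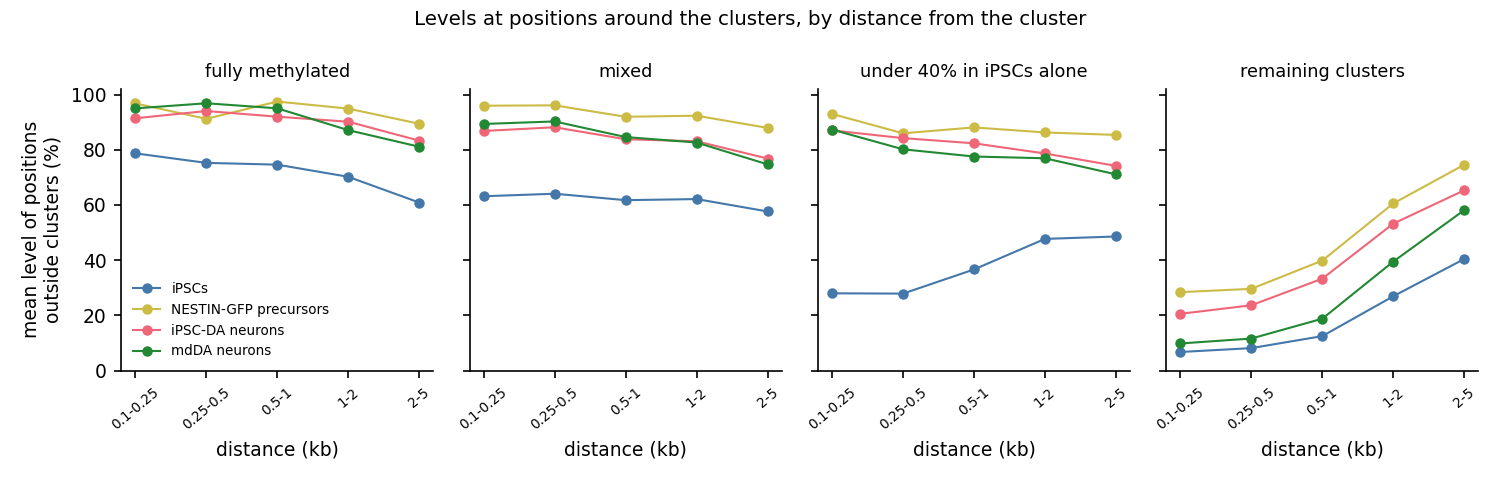
Mean level of single positions outside clusters (y axis, percent) by distance from the nearest cluster (x axis, bins in kb), with 1 panel per set of clusters and 1 line per library. Around fully methylated and mixed clusters the iPSC line is the lowest of the 4 at every distance, and around the remaining clusters all lines start between 6% and 29% and rise with distance.

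Cytosines of the same CpG on opposite strands had like levels in most pairs. They differed by under 10 points in 64.3% of pairs in iPSCs, 80.7% in NESTIN-GFP precursors, 82.0% in iPSC-DA and 87.2% in mdDA neurons. Over 961 such pairs in members, the median absolute difference was 6.97 points in iPSCs, 4.12 in NESTIN-GFP precursors, 3.33 in iPSC-DA and 2.86 in mdDA neurons. A difference of at least 20 points was found in 12.1%, 6.24%, 6.45% and 4.47% of pairs, in that order. The shares were 6.53%, 11.99%, 7.504% and 4.49% in clusters low in iPSCs alone, and 1.56%, 12.6%, 8.51% and 2.63% in the remaining clusters. The pairs of the Vmn2r29 promoter were among these.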

How the data were processed

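The 4 RRBS libraries stand for iPSCs, NESTIN-GFP precursors, iPSC-DA and mdDA neurons, with 1 library a group. According to the methods of the study, reads of 40 bases were checked with FastQC, trimmed with Trim Galore, and aligned and called with Bareback and Bismark. The submitters' processing notes give the versions Trim Galore 0.3.5 and Bismark 0.10.1. The authors deposited, for each cytosine position, raw counts of methylated and of unmethylated calls, and the percent of methylated calls. Each strand of a CpG has its own position. The build is not given in the sources used here. Positions on chromosome 1 reach 197192264, as in NCBIM37 (mm9). Libraries held 68545752, 31419979, 79648099 and 72993474 calls in the order above, and 619480 autosomal positions had at least 5 calls in each.

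Clusters and classes were formed as stated in the results. Differences were called at 20 points between pooled levels, with the share of all clusters beside them. Intervals are Wilson 95% intervals. PCR copies cannot be told apart, so that intervals and limits cover counting error only, and with 1 library per group no test was made. The members and gene lists were chosen with earlier results of these data known.

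Clusters were named by a rule. Among members with at least 100 calls in every library, it took the 6 fully methylated and the 8 intermediate clusters with the most positions, the 4 intermediate clusters with the smallest range, the 3 largest differences in each direction for iPSC-DA minus mdDA and for mdDA minus iPSC levels, and the 4 clusters on each side of 40%. There was 1 intermediate cluster. A RefSeq promoter with at least 10 CpG bases was placed where every covered position within its 300 bases fell on a CpG base, with at least 10 covered, at least 4 more than at the second-best place on the chromosome, and within 50000 bp of the place its neighbours give. Of 8911 promoters placed, 98.9% met the last condition. This matching was chosen after seeing the data, and it replaces the planned distance to gene starts. Code was tested on simulated data and ran in Python 3.11.15 with numpy 2.4.6, pandas 2.3.3, scipy 1.17.1, numba 0.67.0 and matplotlib 3.10.9. The alternatives changed the calls, positions and gaps that make a cluster, the way of averaging, the limits of the classes and the libraries used.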

Additional observations from a re-analysis of the deposited data

Results flagged for a closer look

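The X chromosome was outside the rule, which takes autosomes. Of 232 clusters formed there in the same way, 7 were at 40% or more in all 4 libraries (3.02%), of which 2 were fully methylated and 0 persistently intermediate. Their median levels were 69.4% in iPSCs, 95% in NESTIN-GFP precursors, 88.2% in iPSC-DA and 95.2% in mdDA neurons. They are given because they lie in data that the comparisons do not use.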

How the results depend on the processing

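The number of members rested mostly on what counts as a cluster. With at least 1 call there were 793 members and 197 fully methylated ones. With at least 20 positions there were 22 and 2, with at least 5 positions 5942 and 1809, with gaps under 50 bp 251 and 55, and with strands merged 302 and 56. Fully methylated members were 17 from 90% and 214 from 70%. Persistently intermediate members were 0 with at least 10 calls, at least 20 positions, gaps under 50 or 200 bp, strands merged, or an upper limit of 60%. They were 2 with at least 5 positions or an upper limit of 80%, and 3 with unweighted means. Without the NESTIN-GFP library, an alternative chosen after seeing the data like the next, there were 5. Without the iPSC library there were 1093 members, 741 fully methylated and 25 persistently intermediate. Counting positions from 30% to 70%, their median share within a member was 45.8% in iPSCs, from 80% in the wider range, and 0% in iPSC-DA neurons, from 9.31%. The cause of these shifts was not tested beyond the change of the rule itself. Of 81 values under alternatives, 43 stayed within 1.5 times the count or within the interval of the median or share, and 38 moved. Members lowest in iPSCs stayed between 83.4% and 84.9%. Members within 2000 bp of a matched start, a wider measure than overlap, were 3.50%. Members at a promoter placed on at least 16 covered positions were 1.44%, which leaves out those at Tuba3b and Gm46972.

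No paired analysis was possible because there is 1 library per group and no replicate number. The NESTIN-GFP library limits the depth, with a median of 18 calls per position.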
